A study of Homo sapiens with 9 samples.

Results

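The Krüppel-like factors KLF2, KLF3, KLF4, KLF6, KLF9, KLF10, KLF11 and KLF13 were followed through heat stress and recovery in U937, an established human line from a histiocytic lymphoma with features of monocytes. They are 8 of 19775 genes with a probe set of their own on the array, and were taken as every probe set that the platform annotation assigns to 1 of these symbols alone, 25 probe sets in all. Cells labelled as having had no treatment gave the control array. The other arrays came from cells held for 15 min at 42 °C or at 44 °C and returned to 37 °C for 0, 1, 3 or 6 h, with 1 array for each of these 8 conditions. RNA of each whole culture was labelled from its 3′ end and hybridised to an Affymetrix U133 Plus 2.0 array. Since no condition was repeated, no test was run and all values describe these 9 arrays. The control carries no time point in its label, so that at 1, 3 or 6 h heat and the hours of culture or handling cannot be told apart.

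Krüppel-like factors bind GC-rich and CACCC sequences through zinc fingers at their carboxyl end, and their amino ends recruit activators or repressors. KLF2 and KLF4 are known for holding monocytes and endothelium in a quiescent or differentiated state, and KLF2 is transcribed from a MEF2 site under the kinase ERK5. KLF9, KLF10, KLF11 and KLF13 recruit the corepressor SIN3A, and KLF3 recruits CTBP proteins. Several members are early response genes whose short-lived transcripts follow serum, cytokines or stress.

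Signals are MAS5 values scaled to a common trimmed mean of 100, with values under 12.5 raised to that floor before log2 was taken. The brightest probe set of a gene gave its level, and a gene is said to have risen or fallen where its scaled signal differed by 2-fold or more. The arrays had deposited trimmed means of 101 to 211, and 48.3 to 52.6% of their probe sets lay above the floor. Ratios of 3′ to 5′ signal, a sign of RNA integrity, were 1.18 to 1.36 (ACTB) and 0.939 to 1.13 (GAPDH). Among markers of the line, 7 of 9 measured monocytic genes lay above the floor on all arrays, LYZ and CEBPA among them, while MPO and FCGR1A never did. Their summed signal was 5237 in the control and 3263 to 5247 after heat, and CEBPA, 2122 in the control, was down to 574 at 42 °C and 3 h and 821 at 44 °C and 6 h. Its part in the results was not tested. Of T and NK cell markers NKG7 alone was above the floor throughout, and CD3E, CD3G and CD8A never were. These markers summed to 1325 in the control and 1144 to 1647 after heat, of which NKG7 gave 1295 in the control. Without NKG7 they summed to 30.2 in the control and 12.6 to 51.6 after heat. B cell genes showed CD79A and PAX5 on every array, with a summed signal of 86.2 in the control and 62.1 to 132 in heated cells. Of 3 measured erythroid markers 1 ever passed the floor, and they summed to 14.8 in the control and at most 32.6 after heat. The epithelial and fibroblast list summed to 19.5 in the control and to 29.7 to 307 after heat through COL1A1 and KRT8, and its members EPCAM, KRT19, CDH1 and COL3A1 stayed under the floor on all arrays.

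KLF2 was the member that moved most. On the control array its scaled signal was 20.9. After 42 °C it stood at 70.0 at 0 h, 122 at 1 h, 122 at 3 h and 73.3 at 6 h, and after 44 °C it stood at 17.6 at 0 h, 51.5 at 1 h, 120.0 at 3 h and 55.2 at 6 h. All heated arrays but 44 °C at 0 h lay above the control, and both courses peaked near the same level and were lower at 6 h. The rise over the control at 42 °C was 3.35-fold at 0 h, 5.84-fold at 1 h, 5.84-fold at 3 h and 3.51-fold at 6 h. At 44 °C KLF2 had a log2 fold of -0.25 at 0 h and then rose 2.47-fold at 1 h, 5.75-fold at 3 h and 2.65-fold at 6 h.

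By the brightest probe set the temperatures differed in when the KLF2 signal rose. At 0 h the 44 °C array was 3.98-fold below the 42 °C array, which was place 20 from the lowest among 19775 genes, and at 1 h it was 2.37-fold below. At 3 h the log2 difference was -0.02 and at 6 h it was -0.41. The log2 difference at 0 h of -1.99 came to -1.04 with a floor of 34.1. It came to -0.74, short of 2-fold, as the median of both probe sets, since the dimmer one, under the floor at 42 °C, was higher at 44 °C by at least 0.51. Within the 44 °C course the signal rose 2.92-fold from 0 to 1 h and a further 2.33-fold from 1 to 3 h, then fell 2.17-fold from 3 to 6 h. In the steps of the 42 °C course it moved by less than 2-fold.

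The control signal of KLF2 lies close to the floor, and so do all signals of its other probe set. That probe set passed the floor on 5 of 9 arrays, with 30.4 at 1 h after 42 °C as its highest value and 17.9 on the 44 °C array at 0 h, where the brighter set was lowest. It rose at least 2.42-fold over the control at 1 h after 42 °C, and no other of its log2 folds over the control reached 1. The rise at 42 °C and 0 h, a log2 fold of 1.75, came to 1.04 with a floor of 34.1 and to 1.22 with 16 added to every signal in place of a floor. As the median of both probe sets the log2 folds at 0 and 6 h after 42 °C were 0.87 and 0.91, short of 2-fold. With the floor of 34.1 the rises at 1 and 6 h after 44 °C came to log2 folds of 0.59 and 0.70. Both were also lost with 16 added, at 0.87 and 0.95, and as the median of both probe sets, at 0.75 and 0.70. With all genes put into 10 bins by mean signal, 9.96% of those in the bin of KLF2 differed by 2-fold or more from the control at 42 °C and 0 h, and 15.9% did so at 3 h, against 3.34% and 5.07% of all genes.

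The RefSeq promoter of KLF2 is shown because this gene moved most, and that of KLF13 because it was below the control on every heated array. Both are the 250 bases before the start site in GRCh38.p14, both on the plus strand, at chr19:16324576-16324825 for KLF2 and chr15:31326585-31326834 for KLF13. Capitals mark the MEF2 site in KLF2 and the CACCC box in KLF13.
KLF2: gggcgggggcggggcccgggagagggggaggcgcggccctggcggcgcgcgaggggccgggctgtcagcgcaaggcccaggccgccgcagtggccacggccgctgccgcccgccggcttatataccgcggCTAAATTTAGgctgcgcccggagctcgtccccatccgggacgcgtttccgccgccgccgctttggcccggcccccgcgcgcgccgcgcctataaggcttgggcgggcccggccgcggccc
KLF13: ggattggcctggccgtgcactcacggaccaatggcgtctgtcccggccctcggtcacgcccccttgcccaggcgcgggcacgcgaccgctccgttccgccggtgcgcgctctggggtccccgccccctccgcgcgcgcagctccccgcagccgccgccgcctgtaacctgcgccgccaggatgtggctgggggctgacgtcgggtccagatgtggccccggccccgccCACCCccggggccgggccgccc

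Of the 8 genes, 6 had an entry among 35116 RefSeq promoters, 7 promoters in all since KLF11 has 2. KLF3 and KLF10 had none. The MEF2 site, searched on both strands, lay 120 to 111 bases before the KLF2 start and occurs in 2.80% of all promoters of this length. None of the 7 held the heat shock element in its form of paired units, GAANNTTC (5.78% of all promoters) or TTCNNGAA (6.62%), or with 3 units in either phase (0.441% for each). None held a CArG box, the serum response site (1.16%), or the letters TATAAA (10.7%). The cAMP response element TGACGTCA lay 176 to 169 bases before 1 start of KLF11 (1.65% of all), where it overlaps a CACCC box. CACCC boxes were found in KLF11 and KLF13, against 54.7% of all promoters.

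**Figure D1:**
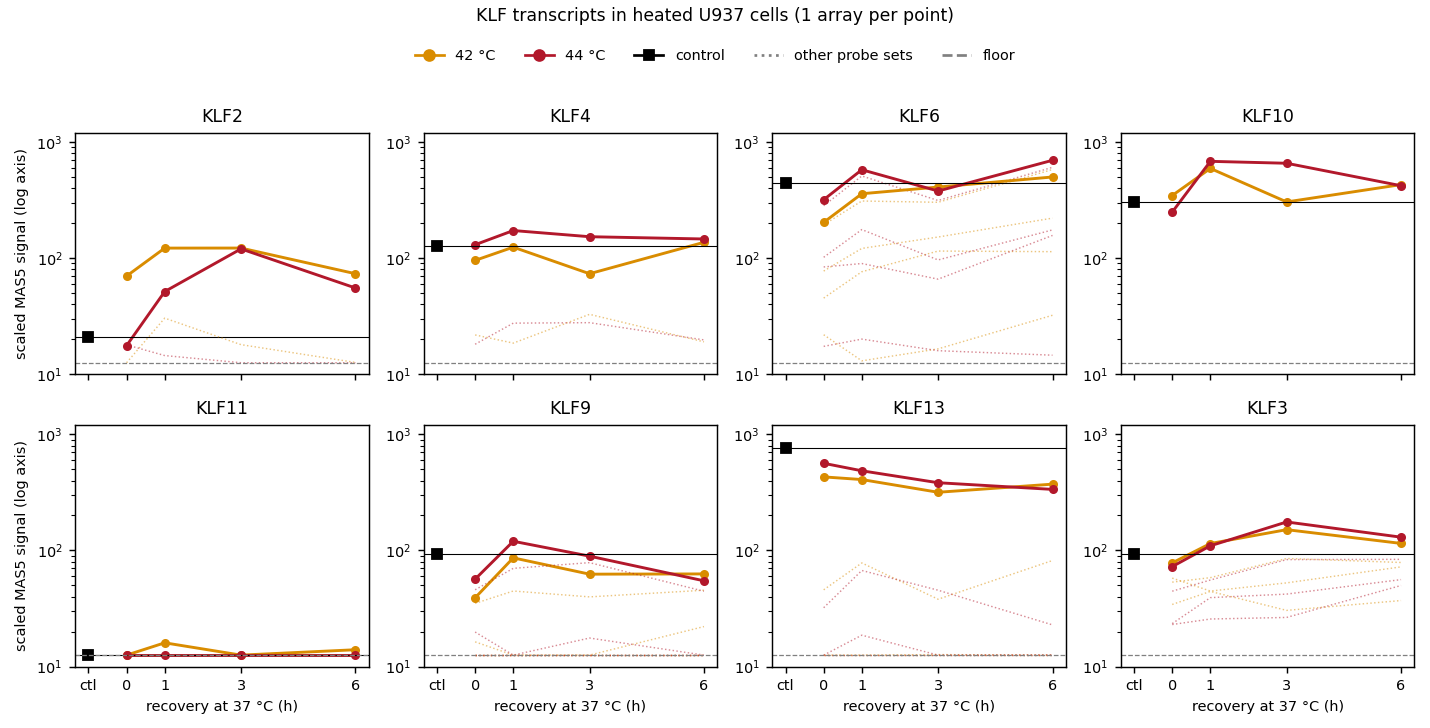
Scaled MAS5 signal (log axis) of each KLF gene on the control array (black square and line) and against hours of recovery after 42 °C (orange) or 44 °C (red), with 1 array per point, the brightest probe set as a solid line, other probe sets dotted and the floor of 12.5 dashed. KLF2 climbs from 20.9 in the control to 122 after 42 °C and reaches 120.0 after 44 °C at 3 h, and KLF13 lies below its control of 770.0 on all heated arrays.

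KLF4, the closest relative of KLF2 and a factor of monocyte differentiation, stayed within 2-fold of the control on all heated arrays. Its scaled signal was 128 in the control, and 95.5, 124, 73.3 and 137 at 0, 1, 3 and 6 h after 42 °C. After 44 °C it was 130.3, 173, 153 and 146 at the same times. The array at 42 °C and 3 h was the lowest, at a log2 fold of -0.80, and it was also the array with the lowest deposited trimmed mean, 101. Its part in the result was not tested. Against it the 44 °C array at 3 h was 2.08-fold higher, a difference with a log2 fold of 0.99 under quantile normalisation and of 0.92 with 16 added. The other probe set of KLF4 ran from 18.1 to 32.8 and had its highest signal on the 42 °C array at 3 h, opposite to the brighter one.

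By its brightest probe set KLF6, an activator known as an early gene of tissue injury, dipped at the end of heating and recovered. In the control its scaled signal was 439.7. It was 203, 358, 409 and 499 at 0, 1, 3 and 6 h after 42 °C, and 318, 577, 378 and 695 after 44 °C. By this probe set both 0 h arrays were lowest within their course and both 6 h arrays highest. KLF6 fell 2.17-fold at 42 °C and 0 h, had a log2 fold of -0.47 at 44 °C and 0 h, and reached 0.66 at 44 °C and 6 h.

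All 5 probe sets of KLF6 were above the floor on every array. At 42 °C and 0 h they had log2 folds of -1.12, -1.08, -0.85 and -0.80, while the dimmest, with signals of 13.0 to 32.2, had 0.46. Their median was -0.85. At 44 °C and 6 h the same 4 brighter sets lay between 0.33 and 0.99, so that none reached 2-fold. KLF6 was thus lower at 42 °C and 0 h by each of the 4 brighter probe sets, by 2-fold or more in the 2 brightest. The course after 44 °C differed between these sets. The set with 139 in the control read 102, 176, 96.3 and 175 at 0, 1, 3 and 6 h. That with 78.6 in the control read 83.8, 89.7, 65.8 and 157. Both were lowest at 3 h after 44 °C, not at 0 h.

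KLF10, a repressor known as an early target of TGF-beta, rose in recovery. Its 1 probe set gave 306 in the control. After 42 °C it gave 346 at 0 h, 592 at 1 h, 304 at 3 h and 429 at 6 h. After 44 °C it gave 249 at 0 h, 681 at 1 h, 656 at 3 h and 419.9 at 6 h. Both courses were highest at 1 h, and at 3 h the 42 °C array was back at the control while the 44 °C array was not.

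KLF10 rose over the control 2.23-fold at 1 h and 2.14-fold at 3 h after 44 °C. At 1 h after 42 °C it was 1.93-fold higher, short of 2-fold, with a log2 fold of 0.95 that became 1.01 under quantile normalisation. From 0 to 1 h after 44 °C it rose 2.74-fold. The 44 °C array at 3 h was 2.15-fold above the 42 °C array of that time, and at 6 h the log2 difference was -0.03. In the signal bin of KLF10, 0.506% of genes differed by 2-fold or more from the control at 44 °C and 1 h, and 0.860% did so between the temperatures at 3 h.

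KLF13, a repressor and an activator of the chemokine gene CCL5 in lymphocytes, was below the control on all 8 heated arrays. The control had a scaled signal of 770.0, followed by 430.1, 408, 317 and 372 at 0, 1, 3 and 6 h after 42 °C. After 44 °C the signals were 563, 485, 383 and 336. At 44 °C each later array was lower than the one before. KLF13 fell 2.43-fold at 3 h and 2.07-fold at 6 h after 42 °C, and 2.01-fold at 3 h and 2.29-fold at 6 h after 44 °C. The value at 3 h after 44 °C had a log2 fold of -0.98, short of 2-fold, with 16 added. In RNA of a whole culture a lower level in every cell and fewer cells with the transcript cannot be told apart.

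A dimmer probe set of KLF13 was also below its control on all heated arrays, but with other sizes. It read 139.5 in the control, 45.8, 78.0, 38.0 and 81.9 after 42 °C, and 32.1, 67.2, 45.4 and 22.8 after 44 °C. It was lower by 4.35-fold at 0 h and 6.11-fold at 6 h after 44 °C. The brightest set had a log2 fold of -0.45 at the first of these times. At 1 and 6 h after 42 °C its log2 folds of -0.84 and -0.77 were smaller in size than those of the brightest set. As the median of both sets the log2 fold was -0.91 at 42 °C and 6 h, short of 2-fold, and -1.22 and -1.29 at 0 h after 42 and 44 °C. The remaining probe sets of KLF13 passed the floor on 3 arrays and on 0. CCL5 itself had 807 in the control and 459 to 797 on heated arrays and did not pass 2-fold.

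KLF9, a repressor known as a glucocorticoid and thyroid hormone target, was low directly after heat. Its scaled signal was 92.4 in the control, 39.1, 86.3, 62.5 and 62.8 after 42 °C and 56.6, 120.0, 89.3 and 54.8 after 44 °C. By this brightest probe set each course rose from 0 to 1 h and was lower again at 6 h. KLF9 fell 2.36-fold at 42 °C and 0 h, where the log2 fold was -0.98 with 16 added, and it rose from 0 to 1 h by 2.21-fold after 42 °C and by 2.12-fold after 44 °C. Its second probe set above the floor throughout was 65.3 in the control and 35.0 on the 42 °C array at 0 h, a log2 fold of -0.90. The log2 step of this second set from 0 to 1 h was 0.35 after 42 °C and 0.61 after 44 °C, short of 2-fold. Its course after 42 °C was highest at 6 h, at 45.4, and that after 44 °C at 3 h, at 78.5. Among genes in the signal bin of KLF9 7.23% differed by 2-fold or more at 42 °C and 0 h. The other 3 probe sets of KLF9 passed the floor on at most 4 arrays.

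KLF3, a repressor that works through CTBP proteins, kept within 2-fold of the control. It stood at 92.8 in the control, at 78.1, 115, 151 and 115 after 42 °C, and at 72.6, 109.6, 176 and 130.1 after 44 °C. Both courses were lowest at 0 h and highest at 3 h, where the log2 folds were 0.70 and 0.92. Its second probe set gave 42.5 in the control and 85.3 and 83.4 at 3 h, or log2 folds of 1.01 and 0.97. Another probe set had -0.13 and -0.45 there, and fell 2.45-fold at 44 °C and 0 h. The remaining set gave 26.9 in the control and 30.5 and 26.5 at 3 h, with its highest signal, 49.9, at 6 h after 44 °C.

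KLF11, the relative of KLF10, was not measurable in these cells. Its brighter probe set passed the floor on 2 arrays, at 1 and 6 h after 42 °C and with a signal of at most 16, and the other on 0. No fold is given for it.

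**Figure D2:**
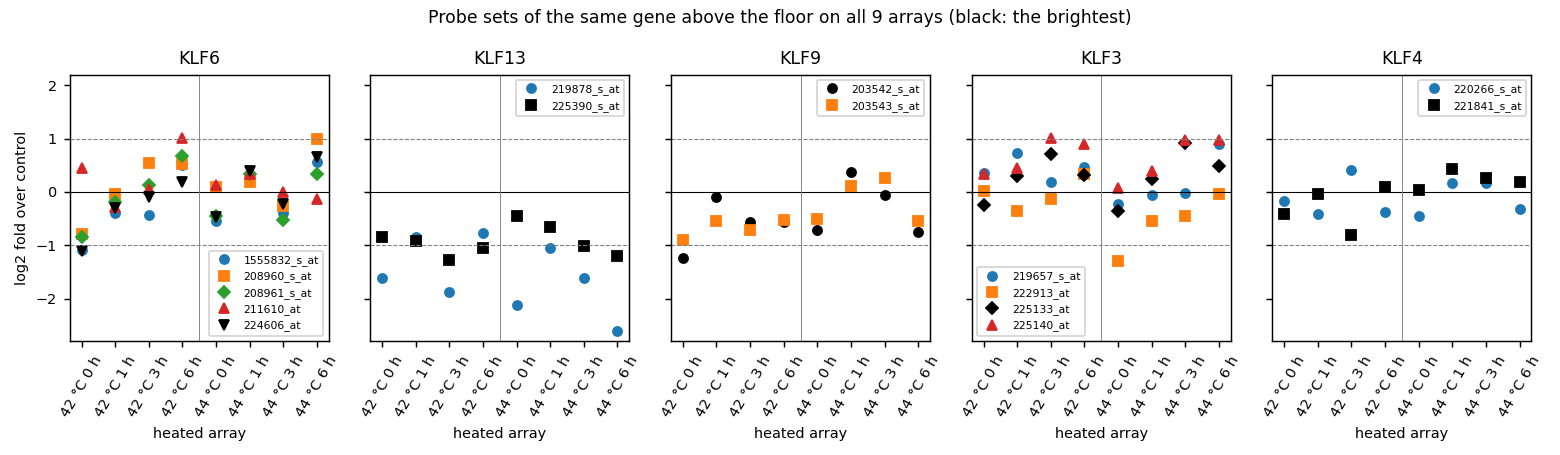
Log2 fold over the control (vertical axis) on the 8 heated arrays (horizontal axis, 42 °C left and 44 °C right of the grey line) for each probe set above the floor on all 9 arrays, with the brightest in black and dashed lines at 2-fold. The KLF13 sets are below 0 on all arrays, 4 of 5 KLF6 sets are below 0 at 42 °C and 0 h, and the KLF4 sets part at 42 °C and 3 h.

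Counted by comparison, 0 to 3 members changed, in both directions. At 42 °C and 0 h KLF2 rose and KLF6 and KLF9 fell, 3 of 8 members, where 3.34% of all genes differed by 2-fold or more. At 1 h KLF2 alone passed (background 3.42%), and at 3 and 6 h KLF2 rose and KLF13 fell (5.07% and 4.97% of all genes). At 44 °C and 0 h 0 of 8 members passed, against 1.89% of all genes. KLF2 and KLF10 rose at 1 h (background 1.38%), the same 2 rose and KLF13 fell at 3 h (2.57%), and KLF2 rose and KLF13 fell at 6 h (5.15%). Over 64 pairs of a member and a heated array 9 were higher and 6 lower, or 23.4%, against 3.47% of 158200 such pairs over all genes. Many genes in that background lie at the floor. Of the 9913 genes above the floor on all arrays, 1.32 to 7.86% passed in these comparisons. In the signal bin of KLF2 5.06 to 15.9% did. KLF2 alone gave 7 of the 9 rises. The 8 comparisons share 1 control array, so that a low or high signal on it enters all of them. The members were chosen with earlier results of these data known, so that the 23.4% only describes a chosen set.

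Between the temperatures 4 of 32 pairs passed 2-fold. KLF2 was lower at 44 °C at 0 h (background 2.35%) and at 1 h (2.28%), KLF4 and KLF10 were higher at 3 h (2.00%), and 0 members passed at 6 h (2.22%). Along the courses, 3 members rose in the first hour after 44 °C, KLF2, KLF9 and KLF10, where 2.29% of all genes passed, and KLF9 alone after 42 °C (2.51%). In the later steps KLF2 rose from 1 to 3 h after 44 °C (1.24%) and fell from 3 to 6 h (2.17%), and 0 members passed in the later steps after 42 °C (2.26% and 3.57%). The median log2 fold of the 7 measurable members over the control lay between -0.42 and 0.46. The median of all genes, many of them at the floor, was 0 in each comparison. That of the 9913 genes above the floor on all arrays lay between -0.06 and 0.02 over the control.

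**Figure D3:**
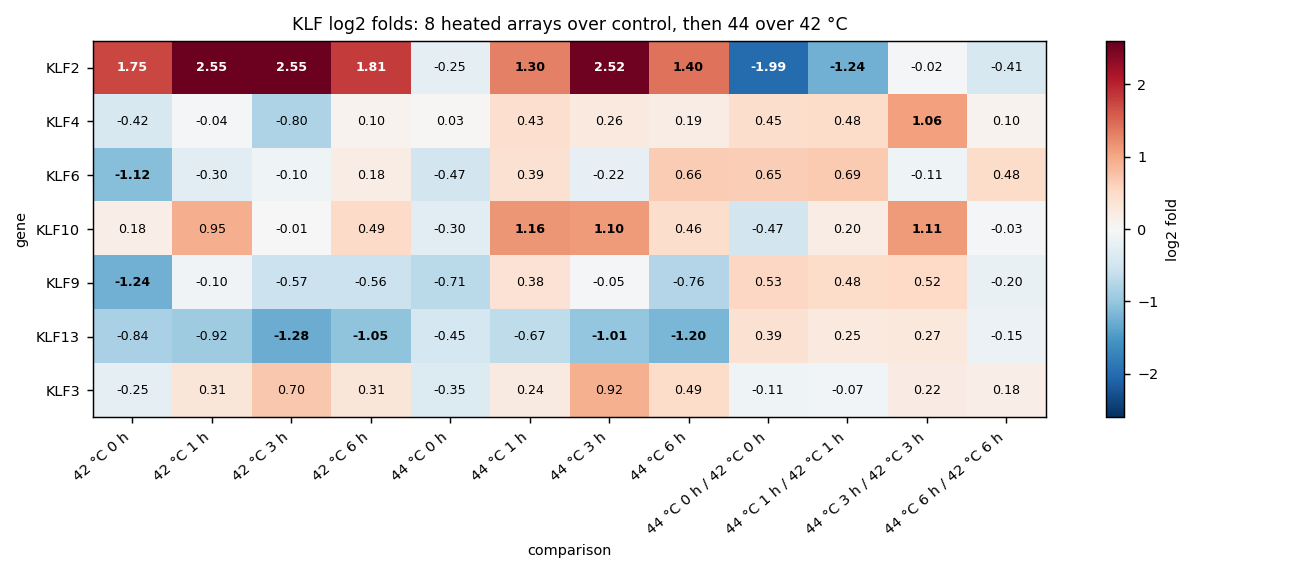
Log2 fold of the 7 measurable KLF genes (rows) in each comparison (columns, 8 heated arrays over the control and then 44 °C over 42 °C at each time), with red for higher, blue for lower and bold type for 2-fold or more. KLF2 passes on 7 of 8 heated arrays, and its sign turns to -1.99 and -1.24 where 44 °C is set against 42 °C at 0 and 1 h.

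**Figure D4:**
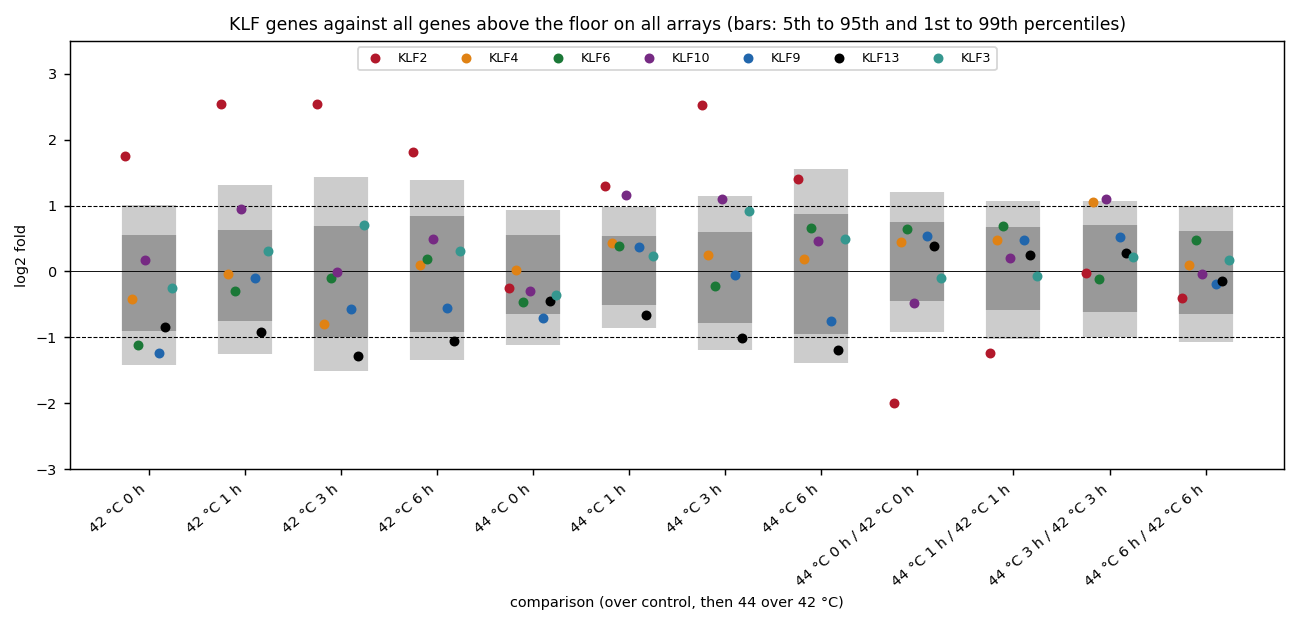
Log2 folds (vertical axis) of the 7 measurable KLF genes (coloured points) in the 12 comparisons, over bars that span the 5th to 95th (dark) and 1st to 99th (light) percentiles of 9913 genes above the floor on all arrays, with dashed lines at 2-fold. KLF2 lies above the 99th percentile at 42 °C and 0 h, 1.75 against 1.01, and below the 1st percentile where 44 °C is set against 42 °C at 0 h, -1.99 against -0.92.

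The genes whose signal followed each member most closely were ranked by Pearson correlation of log2 signal over the 9 arrays among the other 9912 genes above the floor on all of them. Such values share arrays and scaling and are a description. Nearest to KLF2 were ZNF436 (r = 0.969), CGAS (0.959), the sensor of cytosolic DNA, and PPP1R15A (0.958), which directs a phosphatase to the initiation factor eIF2. PPP1R15A had a scaled signal of 221 in the control, 618, 829, 819 and 509 after 42 °C, and 243, 535, 736 and 647 after 44 °C. Like KLF2 it was near its control at 44 °C and 0 h alone.

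For KLF6 the closest were INO80D (0.979), GLIS2 (0.967) and MTMR9 (0.961), and INO80D fell from 149 in the control to 60.4 at 42 °C and 0 h. KLF13 was followed by INKA1 (0.980), EEIG1 (0.979) and RASSF2 (0.966). INKA1 went from 265 in the control to 71.7 at 3 h after 42 °C and 85.9 at 6 h after 44 °C. Around KLF10 stood TIAM2 (0.948), VCL (0.935) and BLTP1 (0.915), around KLF9 P2RX4 (0.957), FOXN3 (0.942) and ERFE (0.932), around KLF4 CYP20A1 (0.960), MAU2 (0.948) and GOLPH3 (0.946), and around KLF3 LYRM1 (0.985), RAB32 (0.963) and MTHFD2 (0.945). A high correlation did not mean a large change. From lowest to highest array the log2 signal spanned 0.40 for VCL, 0.46 for FOXN3 and 0.42 for RAB32. It spanned 1.82 for TIAM2 and 1.19 for P2RX4.

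Other members of the family had lower signals after heat where they changed. Of 9 further KLF genes 6 passed the floor on 1 array or more, 0 rose over the control on any heated array and 3 fell on 1 or more. By comparison with the control at most 3 of the 9 fell, at 42 °C and 6 h, where 2.38% of all genes were lower. Over the 8 comparisons 0.455 to 3.08% of all genes were lower and 0.855 to 2.59% higher, so that 0 rises is near the background. KLF16, a repressor that binds SIN3A, went from 100 in the control to 40.8, 33.4 and 35.1 at 1, 3 and 6 h after 42 °C, and fell 2.45-fold, 3.00-fold and 2.85-fold. After 44 °C it fell 2.06-fold at 6 h. Its other probe set had log2 folds of -0.16 and 0.07 at 3 and 6 h after 42 °C and of -0.11 at 6 h after 44 °C. At 1 h after 42 °C that set fell at least 2.75-fold. KLF15, a factor of fasting metabolism, fell 4.17-fold at 3 h and 3.23-fold at 6 h after 42 °C and at least 5.39-fold at 6 h after 44 °C, from 67.6 in the control. Its other probe set passed the floor only at 6 h after 42 °C, where its log2 fold over the control was at least 0.58. KLF7 fell 2.05-fold at 6 h after 42 °C by its brightest probe set alone, and its other 4 had log2 folds of -0.38 to 0.36. KLF8, KLF14 and KLF17 were never above the floor.

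The SP proteins share the zinc fingers of the family. Of 8 measured SP genes 0 rose and 0 fell in any of the 12 comparisons, where 1.38 to 5.15% of all genes passed, so that 0 of 8 is near the background. Of the 8, 2 were never above the floor, and the list's median log2 fold over the control was between -0.07 and 0.19. SP1 had 673 in the control and 516 to 643 on heated arrays. SP3 had 1151 in the control and 902 to 1341 on heated arrays.

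Of the upstream regulators and cofactors of KLF proteins 20 were measured. MEF2D, a transcription factor of the group that acts on the KLF2 promoter, fell 3.26-fold at 42 °C and 0 h, from 92.3 to 28.3 by its brightest probe set. On the 44 °C array at 0 h MEF2D was at 89.0. This difference between temperatures was seen in 1 of 3 probe sets, since the others had log2 folds of -0.36 and -0.89 at 42 °C and 0 h and of -0.37 and -0.79 at 44 °C and 0 h. MEF2C rose 2.10-fold at 6 h after 44 °C by 1 of its 3 probe sets, and the others had log2 folds of 0.16 and 0.51. SIN3A, the corepressor of KLF9, KLF10, KLF11 and KLF13, fell 2.39-fold at 3 h after 42 °C, from 323 to 135. In each comparison with the control at most 1 of the 20 rose and at most 1 fell, a share near the 1.38 to 5.15% of all genes, and the list's median ran from -0.30 to 0.13.

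Among 16 measured genes reported as targets of KLF proteins, TXNIP and CDKN1A moved most. TXNIP, an inhibitor of thioredoxin and of glucose uptake, had a scaled signal of 312 in the control, 797, 1120.4, 1160.5 and 577 after 42 °C, and 174, 345, 1066 and 1064 after 44 °C. It rose 2.56-fold, 3.60-fold and 3.72-fold at 0, 1 and 3 h after 42 °C, and 3.42-fold at both 3 and 6 h after 44 °C. At 0 h it was 4.59-fold lower at 44 °C than at 42 °C, and at 1 h 3.25-fold lower.

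CDKN1A, the cell cycle inhibitor p21, rose 2.06-fold at 1 h and 3.03-fold at 3 h after 42 °C, and 2.48-fold and 2.33-fold at 3 and 6 h after 44 °C. On the 44 °C array at 0 h it was 15.4 against 105 in the control, 6.85-fold lower. THBD, the anticoagulant receptor thrombomodulin, which KLF2 and KLF4 are known to activate in endothelium, fell 2.47-fold at 42 °C and 0 h, and 2.70-fold and 2.06-fold at 3 and 6 h after 44 °C. By its brightest probe set the signal of 91.1 in the control was above all heated arrays, while another set had a log2 fold of 0.20 at 42 °C and 6 h. ENG, a TGF-beta coreceptor reported as a KLF6 target, fell 2.37-fold at 6 h after 42 °C.

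From the same list SMAD7, an inhibitor of TGF-beta signals that KLF10 and KLF11 repress, rose 2.12-fold at 1 h and 2.28-fold at 3 h after 42 °C. TGFBR1 fell 2.00-fold at 1 h after 42 °C by its brightest probe set alone, and its others had log2 folds of -0.94 and 0.22. SMAD7 and TGFBR1 were named after their values were seen. At most 3 of the 16 rose and at most 1 fell in any comparison with the control, where 0.855 to 2.59% of all genes were higher and 0.455 to 3.08% lower, and the list's median ran from -0.38 to 0.05. CD14 and MAOB were never above the floor, and S1PR1 and ITGB7 passed it on 1 array each. The heat courses of these genes are those of the same 9 arrays and say nothing of what KLF proteins did to them.

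**Figure D5:**
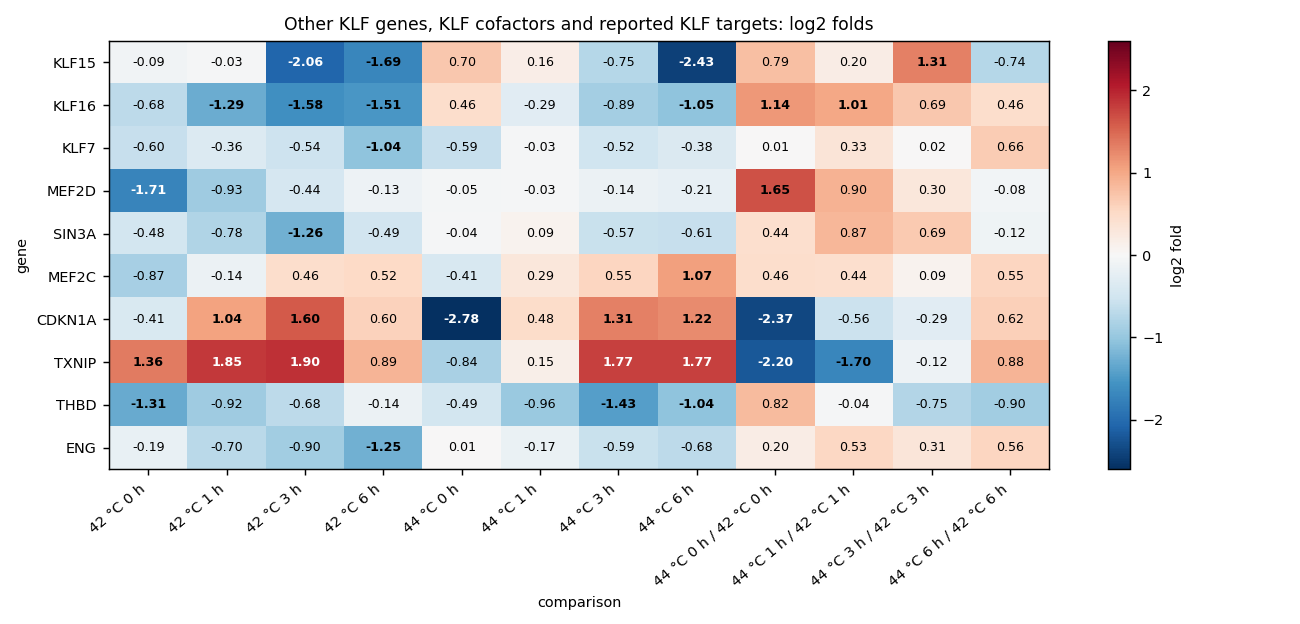
Log2 fold (colour and number, bold for 2-fold or more) of other KLF genes, KLF cofactors and reported KLF targets (rows) in the 12 comparisons (columns, heated arrays over the control and then 44 °C over 42 °C). TXNIP shows -2.20 and -1.70 where 44 °C is set against 42 °C at 0 and 1 h, and CDKN1A shows -2.78 at 44 °C and 0 h.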

How the data were processed

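Gene expression was measured on 9 arrays, 1 per condition, and groups were taken from the sample labels. The authors deposited intensity on a linear scale, made with MAS5 per the submitters' processing notes, with 1 value for each probe set on an array. The MAS5 target is not given in the sources used here. Deposited trimmed means of 101 to 211 show that the arrays were not on a common level. Of 54675 probe sets, 41097 had 1 symbol in the platform annotation, 1801 several and 11777 none, and 62 controls were left out.

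Each array was multiplied by 1 factor to a trimmed mean of 100, with 2% trimmed at each end, lower values were set to the median over all arrays (12.5) as a floor, and logarithms to base 2 followed, in Python 3.11.15, numpy 2.4.6 and pandas 2.3.3. Of several probe sets the one brightest on average over the arrays stood for its gene. Where 1 of 2 signals was at the floor, the fold is a lower bound. Such scaling keeps differences in the shape of the signal distribution, and probes near the 3′ end can miss other transcript forms. Calls were made at 2-fold with no test, in 12 comparisons and in 6 steps between successive arrays of a course, which were added after the values were seen. Named were the 8 members, up to 4 genes past 2-fold of each list and the 3 most correlated genes of each measurable member. The members, lists and settings were chosen with earlier results of these data known. The alternatives were quantile normalisation, a floor of 34.1, 16 added in place of a floor, and the median over probe sets. Promoters came from RefSeq, GRCh38.p14, and protein sequences were not analysed here. The number of arrays limits the precision.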

Additional observations from a re-analysis of the deposited data

How the results depend on the processing

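Of 19 calls of a member in a comparison, 18 remained under quantile normalisation, which added 1, 17 with a floor of 34.1, 14 with 16 added in place of the floor, and 7 with the median over all probe sets of a gene, many of which lie under the floor. With the median over probe sets above the floor on all arrays, an alternative chosen after seeing the data, 16 remained and 2 were added, KLF13 at 0 h after each temperature. No call turned its sign under these alternatives. Counts of members moved by over 1.5 times as follows. Under quantile normalisation they became 2 at 42 °C and 1 h and 1 for 44 °C against 42 °C at 3 h. With the floor of 34.1, and also with 16 added, they became 1 at 44 °C and 1 h and 1 at 44 °C and 6 h. With 16 added 1 was left for 44 °C against 42 °C at 3 h. With the median over all probe sets they became 0 at 42 °C and 0 h, 1 at 3 h and 0 at 6 h, 1 at 44 °C and 1 h and 0 at 6 h, and 0 and 1 for 44 °C against 42 °C at 0 and 3 h. With the median over probe sets above the floor they became 1 at 42 °C and 6 h, 1 at 44 °C and 0 h, and 1 for 44 °C against 42 °C at 3 h. The loss of calls of dim genes under the higher floor and the added 16 follows from their construction, and for other changes the cause was not tested.

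Quantile normalisation moved the share of higher genes among all genes called by over 10 points in 5 comparisons. It went from 27.9 to 38.9% at 42 °C and 0 h, from 55.4 to 44.4% at 42 °C and 1 h, from 45.2 to 55.5% at 44 °C and 3 h, and, for 44 °C against 42 °C, from 67.9 to 50.7% at 0 h and from 38.3 to 60.5% at 6 h. No paired analysis of replicates was possible because each condition had 1 array. The arrays of both temperatures were matched by recovery time, and no test over the 4 times was run, since times are not replicates. Signals near the floor, such as KLF2 in the control, limit the precision of their folds.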
